A study of Mus musculus with 12 samples.

Results

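Mitochondrial ribosomal protein genes encode the proteins of the ribosome inside mitochondria. The gene symbols Mrpl and Mrps, followed by a number, gave 78 such genes of the 13207 genes in the deposited table, and all 78 passed the filter on low values. Of the 78, 51 encode proteins of the large subunit and 26 proteins of the small subunit, as assigned from general knowledge of the mitoribosome. Mrps30 and Mrps18a carry small-subunit names but belong to the large subunit. Mrps36 was assigned to no subunit, because its product is now known as a component of the alpha-ketoglutarate dehydrogenase complex. The members were picked by name and not by a measured value, though with earlier results of these data known.

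The mitoribosome translates the few messenger RNAs of the mitochondrial genome, which encode core subunits of the respiratory chain and ATP synthase. Its ribosomal RNAs are made in the organelle, whereas all of its proteins are encoded in the nucleus, made in the cytosol and imported. Some of its proteins have counterparts in bacterial ribosomes and others are specific to mitochondria. Activated and dividing T cells are known to build mitochondria and to need mitochondrial translation for that growth, and regulatory T cells (Treg) are known for their reliance on oxidative metabolism.

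Thymocytes of C57BL/6 mice, the genotype named in the labels, were sorted as CD4+ cells and sequenced 7 days after an injection of tamoxifen at 10 µg per g of body weight, which all groups share. The labels call tdTomato+ cells newly generated, and use GFP to part Treg from conventional T cells (Tconv). The alleles behind tdTomato and GFP, the promoter behind the tamoxifen-dependent labelling and the age of the mice are not given in the sources used here. Each of the 4 groups has 3 libraries. CD73+ newly generated Treg were tdTomato+GFP+CD73+, and CD73− newly generated Treg were tdTomato+GFP+ without CD73. Newly generated Tconv were tdTomato+ without GFP or CD73. Finally, tdTomato− Treg were GFP+ without tdTomato, with no gate on CD73. Between tdTomato− Treg and Tconv, the lineage, the tdTomato label and the CD73 gate differ together and cannot be told apart. The letters A, B and D of the sample titles name the replicates. Separate animals per library are not stated, so the tests measure the spread between libraries, and that spread may be technical.

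Levels are given as log2 CPM, counts scaled to the size of the library. Effective depths, estimated from the lowest value of each library, ran from 11000000 to 21400000 counts. The CD73+ and CD73− Treg were scaled in one table and the tdTomato− Treg and Tconv in another, so tests stayed within a table and levels across tables are set side by side. Foxp3, the transcription factor that defines Treg, was at 9.19 ± 0.07 (SD, n = 3) in CD73+ Treg, 9.16 ± 0.05 in CD73− Treg, 9.11 ± 0.05 in tdTomato− Treg and 0.18 ± 0.85 in Tconv. In bulk libraries, a change in the mix of cells and a change in RNA per cell cannot be told apart. Lars2 alone held between 16.1% and 32.4% of the CPM in each library.

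The mitochondrial ribosomal protein genes were expressed at moderate levels in all 4 groups. Their summed CPM was 1204 ± 41.2 (SD, n = 3) in CD73+ Treg, 1149 ± 56.7 in CD73− Treg, 1168 ± 19.2 in tdTomato− Treg and 1339 ± 44.2 in Tconv. In the single libraries A, B and D the sum was 1237, 1217 and 1158 in CD73+ Treg, 1179, 1184 and 1083 in CD73− Treg, 1172, 1185 and 1147 in tdTomato− Treg, and 1342, 1382 and 1294 in Tconv. The 3 Tconv libraries were thus above the 9 others, and the 2 groups of newly generated Treg overlapped. As a share of the summed CPM without Lars2, the genes took 0.168% ± 0.00666 in CD73+ Treg, 0.158% ± 0.00896 in CD73− Treg, 0.161% ± 0.00473 in tdTomato− Treg and 0.186% ± 0.00611 in Tconv, in the same order. Over single genes, the mean was highest in Tconv for 53 of the 78, beside 38.9% of 11167 genes with values in all libraries, and lowest in CD73− Treg for 32, beside 24.3%. For 16 of the 78, every Tconv library was above all 9 others, among them Mrps30, Mrps17, Mrpl33, Mrpl9, Mrpl57 and Mrpl18, a share near the 18.6% of all genes. Every CD73− Treg library was below all 9 others for 6 of the 78, Mrpl2, Mrpl4, Mrpl43, Mrpl47, Mrps12 and Mrps34, beside 2.53% of all genes. Every tdTomato− Treg library was below all 9 others for 1 of the 78, Mrps30, beside 6.48%. These counts set levels from separately scaled tables side by side and were not tested.

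**Figure D1:**
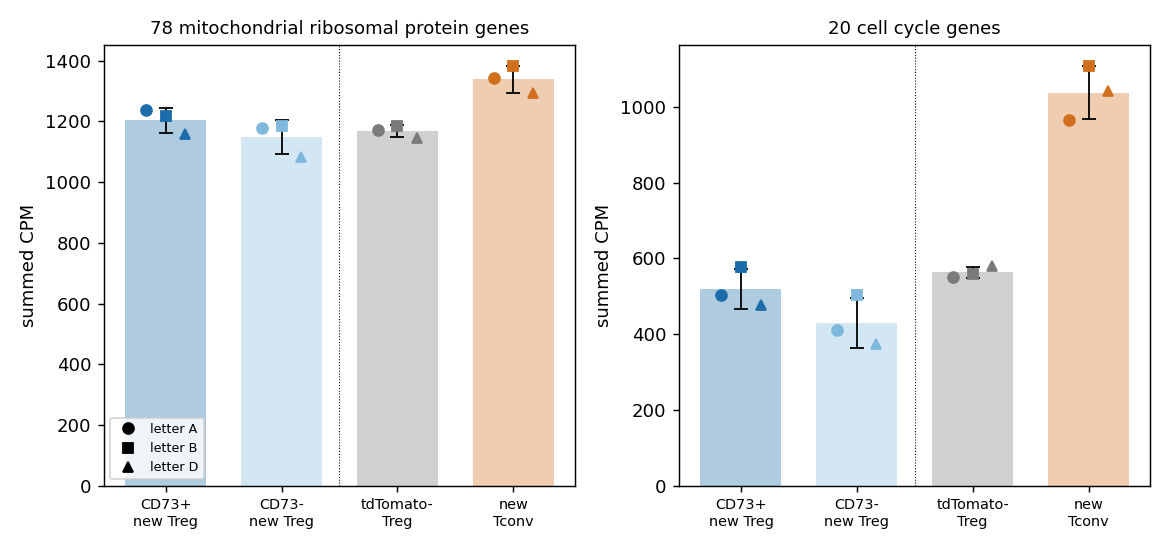
Summed CPM (y axis) of the 78 mitochondrial ribosomal protein genes (left) and of 20 cell cycle genes (right) in the 4 sorted groups; bars are means, error bars SD over 3 libraries, symbols the libraries by letter, and the dotted line the border between the separately scaled tables. The Tconv libraries, at 1294 to 1382 on the left, are above all others in both panels.

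Mean log2 CPM over the groups, which depends on transcript length, ran from 1.27 for Mrps28, the counterpart of bacterial S1, to 5.61 for Mrpl24, with a median of 3.74. Even the lowest gene in the shallowest library had an estimated 16 counts, and the highest in any library an estimated 1176. Per kilobase of the longest annotated coding transcript, the level was highest for Mrpl33 in each group, at 5.86 log2 CPM per kilobase in CD73+ Treg, 5.84 in CD73− Treg, 5.66 in tdTomato− Treg and 6.18 in Tconv. Mrpl24 came next in each group, at 5.16 to 5.22. The median gene was at 3.01 to 3.29 and the middle 50% of genes in Tconv at 2.69 to 3.86. Mrpl47, at 1.32 in Tconv, was the lowest there, next to Mrpl17 at 1.33. The transcripts in use were not measured, so genes with a long annotated transcript, such as Mrpl17 with 7300 bases, may be placed too low. The SD between the 3 libraries of a group had a median of 0.15 log2 in CD73+ Treg, 0.18 in CD73− Treg, 0.11 in tdTomato− Treg and 0.11 in Tconv. Among genes with a mean of at least 3, the largest was 0.41, for Mrps22, a mitochondria-specific protein of the small subunit, in CD73+ Treg.

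In tdTomato− Treg, 21 of the 78 mitochondrial ribosomal protein genes were lower than in newly generated Tconv and 3 were higher, at an adjusted p under 0.05 with limma. The 24 genes are 30.8% of the family. Of all 11198 genes tested, 52.1% were past the threshold, 26.4% higher and 25.7% lower. The share of the family that was lower, 26.9%, was thus near that of all genes, and the share that was higher, 3.85%, was below it. The median log2 fold change was −0.18, beside −0.01 over all genes, and 61 genes lay below 0 and 16 above. All differences were small: 6 of the 78 (7.69%) were over 0.5 on the log2 scale, beside 31.9% of all genes tested. None was over 1, whereas 1808 of all genes (16.1%) were. The authors' deposited table gave 22 lower and 3 higher at its adjusted p under 0.05. In 31 genes every tdTomato− Treg library was below every Tconv library, and in 4 genes above; among all genes tested this held for 30.5% below and 30.5% above. The count past the threshold fell to 15 without tdTomato− Treg A, 14 without tdTomato− Treg D, 13 without Tconv A, 13 without Tconv B and 14 without the 4 libraries of letter D. Quantile normalisation within each table gave 30 lower and 0 higher, with a median of −0.30.

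**Figure D2:**
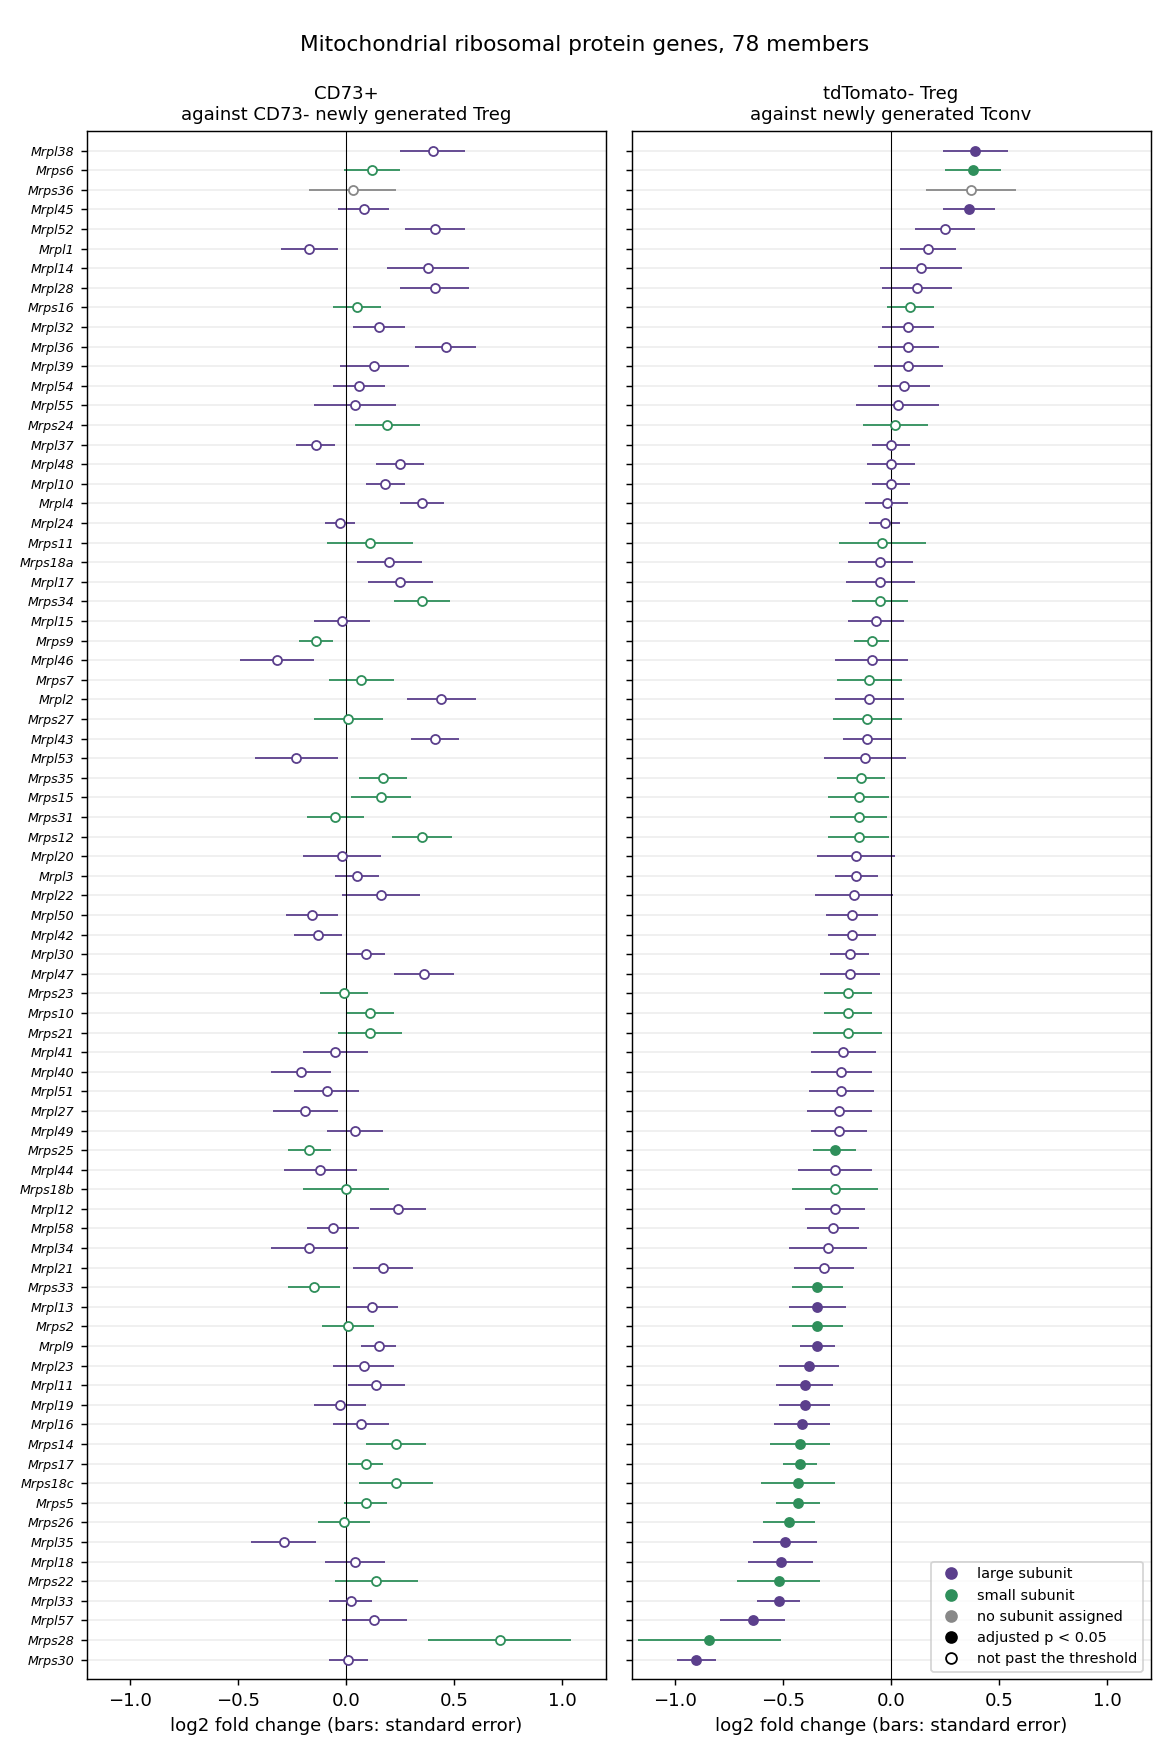
Log2 fold change (x axis) of each of the 78 genes (y axis, ordered by the right panel) for CD73+ against CD73− newly generated Treg (left) and tdTomato− Treg against newly generated Tconv (right); bars are standard errors, colours mark the subunit and filled points an adjusted p under 0.05. On the right 21 filled points lie below 0 and 3 above, and on the left none is filled.

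The largest of these differences was in Mrps30, a mitochondria-specific protein of the large subunit. Its log2 CPM was 4.92, 4.99 and 4.78 in tdTomato− Treg A, B and D and 5.85, 5.78 and 5.77 in Tconv. All 3 Tconv libraries were higher, by more than the spread in either group. The log2 fold change was −0.90 (SE 0.09, adjusted p = 2.8e-07), or 0.535 times the Tconv level. In the table scaled separately, CD73+ Treg were at 5.30 ± 0.14 and CD73− Treg at 5.29 ± 0.15 (SD, n = 3), between the other groups. Mrps30 overlaps the coding gene B430218F22Rik on the other strand.

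Among bacterial counterparts of the large subunit, Mrpl33 stood at 4.62, 4.75 and 4.43 in tdTomato− Treg and at 5.10, 5.16 and 5.09 in Tconv. The groups did not overlap, with a log2 fold change of −0.52 (SE 0.10, adjusted p = 0.0005). Mrpl9 was at 4.76, 4.85 and 4.97 in tdTomato− Treg and at 5.11, 5.22 and 5.28 in Tconv, again without overlap (−0.34, SE 0.08, adjusted p = 0.0016). Mrpl18 was at 4.01, 4.29 and 4.23 against 4.60, 5.04 and 4.42 (−0.51, SE 0.15, adjusted p = 0.0074), with Tconv B the highest library. Mrpl18 overlaps Tcp1, a chaperonin subunit gene on the other strand that was also lower (−0.29, SE 0.06, adjusted p = 0.00059).

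Mrpl57, a mitochondria-specific protein of the large subunit, was at 2.98, 2.87 and 2.96 in tdTomato− Treg and at 3.65, 3.62 and 3.47 in Tconv. The groups were far apart for their spread (−0.64, SE 0.15, adjusted p = 0.0019). The start of Mrpl57 lies 49 bases from that of Ska3, a kinetochore gene read in the other direction, which was lower by more (−1.74, adjusted p = 0.00068).

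In the small subunit, Mrps17, a counterpart of bacterial S17, was at 4.87, 4.77 and 4.76 in tdTomato− Treg and at 5.26, 5.28 and 5.13 in Tconv. The log2 fold change was −0.42 (SE 0.08, adjusted p = 0.00029). Mrps5, a counterpart of bacterial S5, was at 4.97, 4.99 and 5.10 against 5.49, 5.52 and 5.35 (−0.43, SE 0.10, adjusted p = 0.0023). Mrps26, which is specific to mitochondria, was at 4.05, 4.05 and 3.85 against 4.56, 4.38 and 4.42 (−0.47, SE 0.12, adjusted p = 0.0044). In all 3 genes every Tconv library was above every tdTomato− Treg library. Mrps30, Mrps17, Mrpl33, Mrpl9, Mrpl57, Mrps5 and Mrpl18 were past the threshold under all 22 alternatives run, and Mrps26 under 21, its exception being the fit without letter D (adjusted p = 0.0639).

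The other 13 lower genes had log2 fold changes from −0.26 for Mrps25 to −0.84 for Mrps28. Mrps28 was the least precise of them, at 0.91, 0.83 and 1.49 against 1.95, 1.90 and 1.89 (SE 0.33, adjusted p = 0.04). Mrpl35, Mrpl19, Mrpl16, Mrpl11, Mrpl23 and Mrpl13 of the large subunit lay between −0.34 and −0.49. Mrps22, Mrps14, Mrps2, Mrps33 and Mrps18c of the small subunit lay between −0.34 and −0.52. Mrps18c was the closest to the threshold (−0.43, SE 0.17, adjusted p = 0.049).

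The 3 higher genes were of similar size. Mrpl45, which holds the mitoribosome at the inner membrane, was at 3.97, 4.03 and 4.12 in tdTomato− Treg and at 3.58, 3.83 and 3.63 in Tconv (0.36, SE 0.12, adjusted p = 0.02). Mrps6, a counterpart of bacterial S6, was at 4.35, 4.03 and 4.31 against 3.80, 3.78 and 3.98 (0.38, SE 0.13, adjusted p = 0.027). Mrpl38, specific to mitochondria, was at 3.25, 3.55 and 3.10 against 2.86, 2.85 and 3.02 (0.39, SE 0.15, adjusted p = 0.043). The groups did not overlap in any of them. Mrps6 shares its strand with Slc5a3, a myo-inositol transporter gene that was also higher (0.48, SE 0.09, adjusted p = 0.00026). None of the 3 was past the threshold under quantile normalisation. Over all 22 alternatives the adjusted p was 0.00986 to 0.179 for Mrpl45, 0.0139 to 0.107 for Mrps6 and 0.0276 to 0.221 for Mrpl38.

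**Figure D3:**
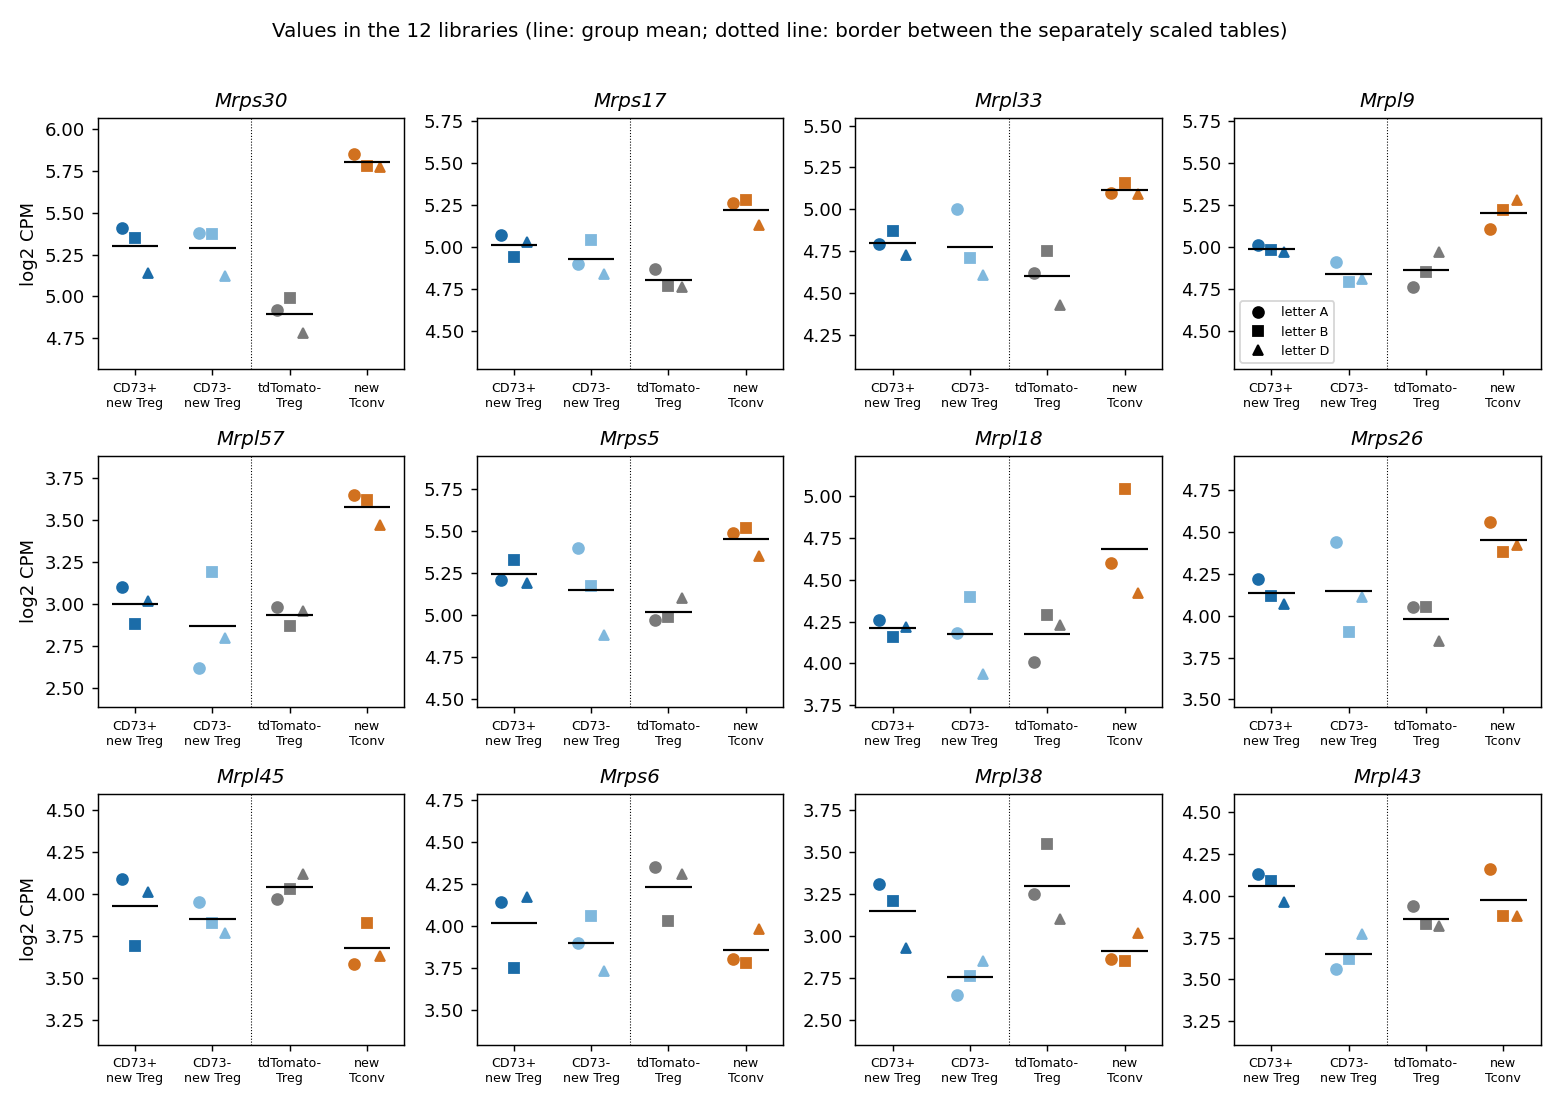
Log2 CPM (y axis) of 12 genes in the 12 libraries, by group (x axis); symbols give the letter, lines the group mean, and the dotted line the border between the separately scaled tables, and each panel spans the same range of 1.5 log2 units. The first 8 genes have their highest mean in Tconv, Mrpl45, Mrps6 and Mrpl38 are higher in tdTomato− Treg than in Tconv, and Mrpl43 is the member with the lowest p between CD73+ and CD73− Treg.

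By subunit, 10 of 26 small-subunit genes were lower (38.5%) and 1 higher (3.85%). Of 51 large-subunit genes 11 were lower (21.6%) and 2 higher (3.92%). Among all genes tested, 25.7% were lower and 26.4% higher. The medians of the small and large subunit were −0.20 and −0.17, and the difference between subunits was not tested. Of 48 genes with a bacterial counterpart 15 were lower (31.2%) and 1 higher. Of 29 mitochondria-specific genes 6 were lower (20.7%) and 2 higher. Each of these sets had a median of −0.18.

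Genes with known roles in the ribosome were spread over this range. In the stalk that recruits translation factors, Mrpl11 was lower (−0.40, SE 0.13, adjusted p = 0.017), Mrpl12 was at −0.26 (SE 0.14, adjusted p = 0.12) and Mrpl10 at 0.00 (SE 0.09, 95% confidence interval −0.19 to 0.19). Mrps12, at the decoding centre, was at −0.15 (SE 0.14, adjusted p = 0.37), and Mrps7, in the head of the small subunit, at −0.10 (SE 0.15, adjusted p = 0.62). Mrpl23, by the exit tunnel, was lower (−0.38, SE 0.14, adjusted p = 0.028). Mrpl44 was at −0.26 (SE 0.17, adjusted p = 0.2), and Mrpl58, which releases stalled ribosomes, at −0.27 (SE 0.12, adjusted p = 0.067). Of the 3 counterparts of bacterial S18, Mrps18c was past the threshold, Mrps18b was at −0.26 (SE 0.20, adjusted p = 0.29) and Mrps18a at −0.05 (SE 0.15, adjusted p = 0.79). Mrps36, at 2.73, 2.98 and 2.84 in tdTomato− Treg against 2.21, 2.76 and 2.47 in Tconv, overlapped between groups (0.37, SE 0.21, adjusted p = 0.14).

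Level and length were examined beside these counts. Of 28 genes with a mean log2 CPM of at least 4 over tdTomato− Treg and Tconv, 13 were past the threshold (46.4%). This stands beside 49.2% of 3223 other genes in that range. Of the 50 below 4, 11 were (22.0%), beside 44.1% of 3169 other genes. The median fold change was −0.15 for 25 genes with a coding transcript of up to 1000 bases, −0.18 for 28 of up to 2000 bases and −0.23 for 25 longer ones, whereas other genes had medians of 0.01, 0.01 and −0.01.

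Promoter sequences are shown for some of the genes whose levels differed, to set the start sites beside the values. They were picked with the values known and by no fixed rule. Mrps17, Mrps5, Mrps26, Mrpl18 and Mrpl19 had a lower adjusted p than Mrpl35 and are not shown. Of these, Mrps17 and Mrps5 hold none of the letters marked below. Mrps26 and Mrpl18 hold the letters CCGGAAG, and Mrpl19 had no matched promoter. Mrps30 had the largest difference, Mrpl33, Mrpl9, Mrpl57 and Mrpl35 were also lower in tdTomato− Treg, and Mrpl45 was higher. Each is 250 bases before to 50 after the start given by RefSeq on GRCm38.p6, 5′ to 3′ on the strand of the gene. Capitals mark, on either strand, the letters CGCATGCG (bound by NRF1), CCGGAAG (bound by ETS factors such as GABPA) and AAGATGGC (bound by YY1), 3 factors known from promoters of nuclear genes for mitochondrial proteins. The windows are chr13:118387203-118387502 on the minus strand for Mrps30, chr3:94443086-94443385 on the plus strand for Mrpl9, chr5:31613701-31614000 on the plus strand for Mrpl33, chr14:57825989-57826288 on the plus strand for Mrpl57, chr6:71823735-71824034 on the minus strand for Mrpl35 and chr11:97315466-97315765 on the plus strand for Mrpl45.
Mrps30: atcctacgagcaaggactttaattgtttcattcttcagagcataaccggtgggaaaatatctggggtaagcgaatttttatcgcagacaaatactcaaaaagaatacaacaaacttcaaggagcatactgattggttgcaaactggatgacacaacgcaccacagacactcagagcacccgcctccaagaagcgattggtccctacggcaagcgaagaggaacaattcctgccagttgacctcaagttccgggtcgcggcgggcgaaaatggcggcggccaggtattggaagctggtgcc
Mrpl9: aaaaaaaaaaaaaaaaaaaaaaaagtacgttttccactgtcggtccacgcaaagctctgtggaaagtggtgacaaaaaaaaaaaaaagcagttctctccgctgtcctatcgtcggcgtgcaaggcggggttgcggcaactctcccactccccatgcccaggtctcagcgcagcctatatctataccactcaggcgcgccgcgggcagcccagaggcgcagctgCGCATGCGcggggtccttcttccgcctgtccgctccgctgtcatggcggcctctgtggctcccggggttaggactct
Mrpl33: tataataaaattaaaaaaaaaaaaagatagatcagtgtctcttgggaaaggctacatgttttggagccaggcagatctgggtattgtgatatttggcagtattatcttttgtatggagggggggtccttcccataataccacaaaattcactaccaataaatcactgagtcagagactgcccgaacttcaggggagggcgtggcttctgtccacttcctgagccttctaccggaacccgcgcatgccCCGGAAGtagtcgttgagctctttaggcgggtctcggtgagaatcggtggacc
Mrpl57: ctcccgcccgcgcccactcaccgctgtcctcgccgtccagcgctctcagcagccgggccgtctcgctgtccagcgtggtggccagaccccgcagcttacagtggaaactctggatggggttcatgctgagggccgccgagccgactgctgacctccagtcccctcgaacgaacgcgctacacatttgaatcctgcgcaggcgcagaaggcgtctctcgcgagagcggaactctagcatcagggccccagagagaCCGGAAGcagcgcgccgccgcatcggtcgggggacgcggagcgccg
Mrpl35: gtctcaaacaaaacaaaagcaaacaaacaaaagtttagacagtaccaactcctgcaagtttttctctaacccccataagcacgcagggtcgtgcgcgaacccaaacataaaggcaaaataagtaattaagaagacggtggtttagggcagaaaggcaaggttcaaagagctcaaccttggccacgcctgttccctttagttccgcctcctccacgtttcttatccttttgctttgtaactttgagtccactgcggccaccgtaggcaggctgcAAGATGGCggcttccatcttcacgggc
Mrpl45: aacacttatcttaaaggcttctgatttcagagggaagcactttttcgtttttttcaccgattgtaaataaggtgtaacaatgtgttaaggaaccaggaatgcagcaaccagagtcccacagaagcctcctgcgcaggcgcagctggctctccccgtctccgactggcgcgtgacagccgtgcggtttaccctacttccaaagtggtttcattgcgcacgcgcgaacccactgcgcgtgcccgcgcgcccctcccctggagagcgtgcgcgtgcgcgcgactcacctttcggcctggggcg

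The Mrpl9 window holds the NRF1 letters, those of Mrpl33 and Mrpl57 the ETS letters, and that of Mrpl35 the YY1 letters, while these letters are not in the windows of Mrps30 and Mrpl45. RefSeq promoters were matched by symbol for 69 of the 78 genes. Of these, 37 (53.6%) held at least 1 of the 3, beside 24.7% of 10325 promoters of genes in the table. The ETS letters were in 25 of 69 (36.2%, beside 18.1%), the YY1 letters in 12 (17.4%, beside 4.6%) and the NRF1 letters in 7 (10.1%, beside 3.9%). The E-box CACGTG, bound by MYC, was in 5 (7.2%, beside 10.0%) and the GC box GGGCGG in 34 (49.3%, beside 62.8%). Matches of different motifs shared bases in 2 of the 69 promoters. Among the 18 lower genes with a promoter, 7 held the ETS letters, 1 the YY1 letters and 1 the NRF1 letters. Among the other 51 genes these numbers were 18, 11 and 6. The lower genes with the YY1 and the NRF1 letters are Mrpl35 and Mrpl9, both shown above. The windows shown therefore do not stand for the 18. A match is a description of letters and not a measured site.

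The genes lie on 17 chromosomes. Mrps30 is at chr13:118378381-118387252, Mrps17 at chr5:129715497-129722556, Mrpl33 at chr5:31596935-31664384, Mrpl9 at chr3:94443318-94451130 and Mrpl57 at chr14:57826234-57829296 of GRCm38, all protein-coding in GENCODE M21. The start of another protein-coding gene, read in the other direction, lies within 1000 bases upstream for 18 of the 78 (23.1%, beside 10.2% of 13075 protein-coding genes in the table). In 17 of these pairs the neighbour was tested between tdTomato− Treg and Tconv. Of these neighbours 7 were past the threshold, 4 higher and 3 lower, where 52.1% of all genes tested were past it. In 1 pair, Mrpl57 and Ska3, the ribosomal gene was past it too. Mrpl49 was at −0.24 (adjusted p = 0.13) while its neighbour Fau, a gene of the cytosolic ribosome 59 bases away, was higher (0.32, adjusted p = 2.6e-05). A coding gene overlaps 26 of the 78, and whether counting used strand is not given in the sources used here. Among the 52 without an overlap, 14 were lower and 2 higher, beside 25.7% lower and 26.4% higher among all genes tested.

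Other genes of mitochondrial translation were set beside the family. Of 5 mitoribosomal proteins without an Mrp symbol, 2 were lower in tdTomato− Treg and none higher. Chchd1 was at −0.46 (SE 0.14, adjusted p = 0.014) and Ptcd3 at −0.19 (SE 0.08, adjusted p = 0.0496), whereas Dap3 was at −0.04, Gadd45gip1 at −0.08 and Aurkaip1 at 0.15. Of 27 assembly factors 5 were lower and none higher, among them Rbfa, which matures the small subunit (−0.56, SE 0.13, adjusted p = 0.0021), and Rcc1l (−0.59, SE 0.19, adjusted p = 0.015). Of 15 translation factors 2 were lower and none higher. Mrrf, the factor that recycles the ribosome after termination, was at 3.06 ± 0.07 in tdTomato− Treg and 3.91 ± 0.11 in Tconv (SD, n = 3), a log2 fold change of −0.86 (SE 0.13, adjusted p = 3.6e-05). Guf1 was at −0.32 (SE 0.08, adjusted p = 0.0044). The medians of these 3 lists were −0.08, −0.05 and −0.07. Lower were 40% of the first list, 18.5% of the assembly factors and 13.3% of the translation factors, beside 25.7% of all genes tested.

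Of 13 genes for mitochondrial transcription and RNA stability, 4 were lower (30.8%, beside 25.7% of all genes tested) and none higher. They included Tfam, which packages mitochondrial DNA (−0.33, SE 0.08, adjusted p = 0.0019), and the transcription factor Tfb2m (−0.27, SE 0.10, adjusted p = 0.026). Of 14 regulators of nuclear genes for mitochondria, 2 were higher (14.3%, beside 26.4% of all genes) and 4 lower (28.6%, beside 25.7%). Myc was higher in tdTomato− Treg, at 6.58 ± 0.09 against 5.86 ± 0.08 (0.72, SE 0.09, adjusted p = 2.1e-06), and so was Gabpb1 (0.18, SE 0.06, adjusted p = 0.018). Pprc1 (−0.36, SE 0.07, adjusted p = 0.00025) and Ddit3 (−0.63, SE 0.17, adjusted p = 0.0045) were lower. Of 13 mitochondrially encoded genes, mt-Nd1 (−0.34, SE 0.11, adjusted p = 0.015) and mt-Nd6 (−0.49, SE 0.17, adjusted p = 0.022) were lower and none was higher. The lower share, 15.4%, was below the 25.7% of all genes. The median of that list was 0.00, and its mt-Co2 had an SD of 5.92 log2 among the Tconv libraries, so single mitochondrial genes were unevenly measured.

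**Figure D4:**
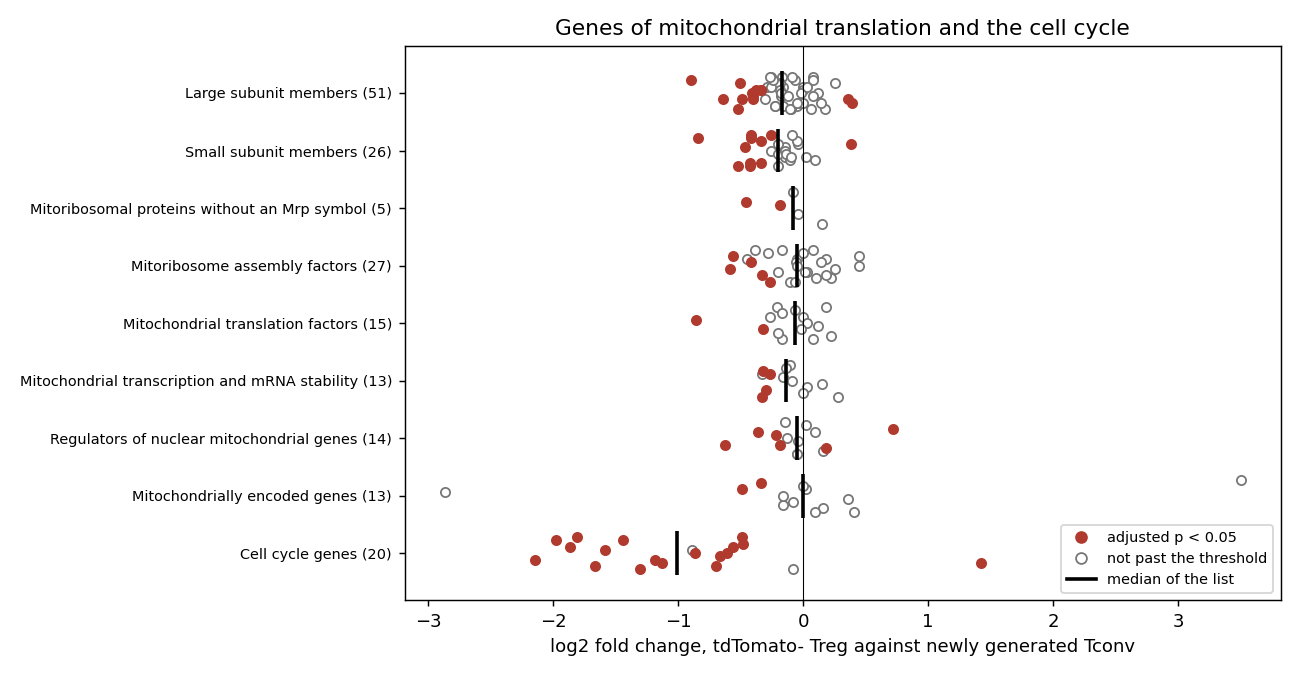
Log2 fold change of tdTomato− Treg against newly generated Tconv (x axis) for the genes of each list (y axis, number of genes tested in brackets); filled red points have an adjusted p under 0.05 and black bars are medians. The large-subunit and small-subunit members have medians of −0.17 and −0.20, and the cell cycle genes a median of −1.01.

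Cell cycle genes moved in the same comparison. Of 20, 17 were lower in tdTomato− Treg, among them Top2a (−1.98, SE 0.21, adjusted p = 6.9e-07) and Mcm2 (−0.87, SE 0.10, adjusted p = 9.7e-07), and Tk1 was higher (1.42, SE 0.15, adjusted p = 6.5e-07). Their summed CPM was 550 to 579 in tdTomato− Treg and 964 to 1110 in Tconv, beside 477 to 578 in CD73+ Treg and 374 to 502 in CD73− Treg. Markers of other cells also differed: of 5 tested myeloid and dendritic genes 3 were higher in tdTomato− Treg and 1 lower, of 2 B cell genes 1 was higher, of 1 thymic epithelial gene 1 was higher, of 5 erythroid genes 2 were higher, and of 8 double-positive and CD8 thymocyte genes 3 were higher and 2 lower. In tdTomato− Treg and Tconv their summed CPM was 31.5 to 40.7 and 19.1 to 21 for 11 myeloid and dendritic genes, 8.44 to 10.6 and 3.58 to 5.22 for 7 B cell genes, 5.91 to 8.24 and 2.65 to 2.92 for 3 thymic epithelial genes, 91.0 to 144 and 67.2 to 107 for 5 erythroid genes, and 87.5 to 104 and 93.8 to 97.9 for 10 thymocyte genes. Of all these markers, Flt3 in tdTomato− Treg was the only one at the level of no count in every library of a group. Of 7 Treg and CD4 T cell genes, 4 were higher, as the sort implies, and 3 lower. Of all genes tested in this comparison, 26.4% were higher and 25.7% lower. The part of these genes in the differences of the ribosomal genes was not tested.

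Between CD73+ and CD73− newly generated Treg, none of the 78 mitochondrial ribosomal protein genes was past the threshold, beside 2.47% of 11170 genes tested. At an unadjusted p under 0.05, 12 genes were higher in CD73+ Treg and 0 lower, beside 9.68% higher and 7.49% lower among all genes, and the authors' deposited table also called 0. The median log2 fold change was 0.08, beside 0.01 over all genes, with 53 genes above 0 and 25 below. In 13 genes every CD73+ library was above every CD73− library, and in 1 gene, Mrpl46, below, where all genes gave 10.0% and 8.18%. The lowest adjusted p was that of Mrpl43. With the letter as a replicate block, which the pairing check allows here, Mrpl43 passed (adjusted p = 0.0393) and 658 of all genes did. Without CD73− Treg A, Mrpl36 passed (adjusted p = 0.0478).

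Mrpl43, a mitochondria-specific protein of the large subunit, was at 4.13, 4.09 and 3.96 in CD73+ Treg A, B and D and at 3.56, 3.62 and 3.77 in CD73− Treg. The groups did not overlap (0.41, SE 0.11, adjusted p = 0.065). Mrpl4, by the exit tunnel, was at 4.23, 3.99 and 4.29 against 3.86, 3.86 and 3.75 (0.35, SE 0.10, adjusted p = 0.097), also without overlap. Mrpl36, the counterpart of bacterial L36, was at 3.42, 3.72 and 3.57 against 3.39, 2.91 and 3.02 (0.46, SE 0.14, adjusted p = 0.11), with CD73− Treg A close to the lowest CD73+ library. Mrpl52 (0.41, SE 0.14), Mrpl2 at the peptidyl transferase centre (0.44, SE 0.16), Mrps34 (0.35, SE 0.13), Mrpl28 (0.41, SE 0.16), Mrpl38 (0.40, SE 0.15), Mrps12 (0.35, SE 0.14), Mrpl47 (0.36, SE 0.14) and Mrpl48 (0.25, SE 0.11) had adjusted p from 0.14 to 0.26. Mrps28 had the largest difference, at 1.45, 1.95 and 0.80 against 1.25, 0.24 and 0.58 (0.71, SE 0.33, adjusted p = 0.28), and its groups overlapped. Mrpl46 had the most negative difference, at 2.75, 2.19 and 2.84 against 2.91, 2.99 and 2.85 (−0.32, SE 0.17, adjusted p = 0.34). All 12 genes with an unadjusted p under 0.05 had a mean log2 CPM under 4 over CD73+ and CD73− Treg, where 54 of the genes lie. Among other genes in that lower range the median was 0.06, beside 0.12 for the 54.

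None of the 78 genes passed between CD73+ and CD73− Treg. That includes the 8 with the lowest adjusted p among those lower in tdTomato− Treg than in Tconv. Mrps30 was at 5.41, 5.35 and 5.14 in CD73+ Treg and at 5.38, 5.37 and 5.12 in CD73− Treg, a difference of 0.01 (95% confidence interval −0.18 to 0.20). Mrpl33 was at 0.02 (−0.20 to 0.24), Mrps17 at 0.09 (−0.08 to 0.26), Mrps5 at 0.09 (−0.13 to 0.31), Mrpl57 at 0.13 (−0.19 to 0.45), Mrps26 at −0.01 (−0.27 to 0.25) and Mrpl18 at 0.04 (−0.27 to 0.35). Mrpl9 was at 0.15 (−0.02 to 0.32), and it was the 1 of the 8 whose groups did not overlap, with CD73+ Treg at 5.01, 4.98 and 4.97 and CD73− Treg at 4.91, 4.79 and 4.81. Of the stalk genes, Mrpl10 was at 0.18 (−0.02 to 0.37), Mrpl12 at 0.24 (−0.04 to 0.52) and Mrpl11 at 0.14 (−0.14 to 0.42). Of the 12 genes with an unadjusted p under 0.05 here, 2 were past the threshold in the other comparison: Mrpl38, higher in both CD73+ Treg and tdTomato− Treg, and Mrps28, lower in tdTomato− Treg. No test compared the differences between the tables.

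By structure, 33 of 51 large-subunit and 19 of 26 small-subunit genes lay above 0, with medians of 0.07 and 0.10. Of all 11170 genes tested, 5717 lay above 0, with a median of 0.01. Of 6318 other genes in the members' range of mean level, 3528 lay above 0, with a median of 0.03. Among genes with a bacterial counterpart 38 of 48 lay above 0 and the median was 0.11, and among mitochondria-specific genes 14 of 29 did and the median was −0.01. Of the 12 genes with an unadjusted p under 0.05, 7 have a bacterial counterpart and 5 are specific to mitochondria. These counts are descriptions, since the genes of a library are not independent.

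In the other lists of mitochondrial translation, none of the 5 mitoribosomal proteins without an Mrp symbol, 27 assembly factors, 15 translation factors, 13 genes of mitochondrial transcription and RNA stability, 14 regulators and 13 mitochondrially encoded genes passed the threshold between CD73+ and CD73− Treg. At an unadjusted p under 0.05 the limma fit had 0, 3, 2, 0, 3 and 0 higher and 0, 0, 0, 0, 0 and 1 lower. Among all genes tested, 9.68% were higher and 7.49% lower at that p. Myc was at 6.57 ± 0.13 in CD73+ and 6.28 ± 0.17 in CD73− Treg (0.29, SE 0.09, adjusted p = 0.0912). Of 20 cell cycle genes, 2 were higher in CD73+ Treg, Tk1 (0.78, SE 0.15, adjusted p = 0.013) and Ube2c (1.68, SE 0.40, adjusted p = 0.033), and 17 lay above 0. Of all 11170 genes tested, 1.78% were higher and 0.689% lower past the threshold, and 5717 lay above 0. Of the 8 tested thymocyte markers Aqp11 was lower, at 1.46 ± 0.07 in CD73+ and 2.46 ± 0.28 in CD73− Treg (SE of the difference 0.23, adjusted p = 0.032). Summed CPM of all 10 listed thymocyte markers was 41.6 to 46.4 in CD73+ and 45.0 to 108 in CD73− Treg. No marker in the remaining 5 lists passed. Summed CPM of the myeloid and dendritic genes was 23.6 to 28.8 in CD73+ and 17.9 to 23.1 in CD73− Treg. The part of these genes in the values of the ribosomal genes was not tested.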

How the data were processed

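RNA sequencing libraries of 4 sorted groups, 3 each, were used. STAR, RSEM, limma and mm10 are named in the submitters' processing notes, and neither versions nor options are given there. The log2 CPM values deposited by the authors come in 2 tables of 6 libraries, each filtered and scaled on its own. Per the file headers, the authors' comparisons add log2 fold changes, a t statistic (a score, not used), p-values and FDR. An offset of 0.5 count was assumed, and the lowest value of each library was taken as no count. The effective depth and the estimated counts were derived from that value and rest on this assumption. Without molecular identifiers, estimated counts reflect reads and not molecules.

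The deposited log2 values entered 1 limma fit (version 3.58.1, R 4.3.3) over all 12 libraries with 4 group means, no block and an intensity trend, checked on simulated data; genes in 1 table only were fitted within that table. The filter asked for a log2 CPM of 0 or more in 3 or more libraries. The two-sided p-values were adjusted by Benjamini-Hochberg over all genes tested, with a threshold of 0.05. Errors are SD over libraries or standard errors (SE) of the fit, and 95% confidence intervals use its moderated degrees of freedom. The members and lists were chosen with earlier results of these data known. Named members are the 8 with the lowest adjusted p per direction past the threshold, the extremes of fold change, the largest SD, members with no subunit and members fixed by role; other lists give up to 2 genes per direction. Names added after the values were seen are the remaining members past the threshold, the members with an unadjusted p under 0.05, neighbouring and overlapping genes, mt-Co2, the genes at the ends of the per-kilobase order, and Myc between CD73+ and CD73− Treg.

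Positions are from GENCODE M21, where 13077 of 13207 gene IDs and all 78 members matched. Motifs were counted in RefSeq promoters with Python 3.11.15. The replicate letters were checked as correlations of deviations from group means over 9942 genes at a log2 CPM of at least 0 in every library. Same-letter libraries of CD73+ and CD73− Treg correlated at 0.146, 0.266 and 0.222, all above 0.1, so the block is given there where it changes a call. This gene set is that of the earlier analysis of these data, and was taken up after 2 others had been tried, and the outcome depends on it. Over all 11167 genes tested in both tables the correlations were 0.058 to 0.11, which would not meet the rule, and over 9342 genes with a mean of at least 2 they were 0.17 to 0.32. No values were dropped or imputed.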

Additional observations from a re-analysis of the deposited data

How the results depend on the processing

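The alternatives run were other filters, scalings, offsets and fits and each library left out in turn. The median fold change of the members kept its direction under all of them, whereas the number of members past the threshold changed. Between tdTomato− Treg and Tconv, lower members outnumbered higher ones in every alternative. The higher ones went from 3 to 0 under quantile normalisation and without Tconv A. Between CD73+ and CD73− Treg, the number of members past the threshold was 0, and 1 with the replicate block. With single libraries left out it was 0 to 1. The number of all genes past it there depended on the fit: 276 became 146 with only the 2 groups compared, 658 with the replicate block, 107 without the intensity trend and 41 without the 4 libraries of letter D. It was 100 to 393 with single libraries left out. The cause was not tested.

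Between tdTomato− Treg and Tconv, the 24 members became 14 without letter D, in a fit with fewer libraries, and 13 to 25 with single libraries left out. The median of the members moved from −0.18 to −0.30 under quantile normalisation, where the median of all genes moved from −0.01 to −0.09. Mrpl45, Mrps6 and Mrpl38, the 3 higher members, were past the threshold in 17, 16 and 15 of the 22 alternatives, and Mrps18c, the closest lower one, in 12. Same-letter libraries of these groups correlated at 0.117, 0.114 and 0.054, not all above 0.1, so the letters were not taken as pairing them; the replicate block gave 3 higher and 22 lower members. Over 9342 genes with a mean of at least 2 the correlations were 0.102 to 0.154, which would meet the rule, and over all 11167 genes 0.038 to 0.103. Groups of 3 limit the precision: the median SE of a member was 0.14 log2 in either comparison. Differences well above that size could also stay short of the threshold. Between CD73+ and CD73− Treg, Mrpl36 at 0.46 (SE 0.14) had an adjusted p of 0.11 in the limma fit.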
